A study of Mus musculus with 6 samples.

Results

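Chemokine ligands and receptors were examined in the chromatin of mouse colonic organoids as a set of 46 named genes out of 55450 in the GENCODE annotation of GRCm38/mm10. All 46 listed symbols were found, 32 ligands and 14 receptors, on 10 autosomes, and 45 of them were annotated as protein-coding, with Cxcl11 annotated as a polymorphic pseudogene. For each gene the promoter was taken as 1000 bp on each side of every annotated transcript start, and a mark was called where a deposited peak covered at least 1 bp of it. The share of promoter bases under peaks was recorded beside each call. Organoids of colonic epithelium from C57BL/6 mice were left untreated (wt) or kept with TNFα at 40 ng/ml for 3 weeks (wt+TNFα). Histone H3 trimethylated at lysine 4 (H3K4me3) and at lysine 27 (H3K27me3) was measured by ChIP-seq. Each condition had 1 library for either mark and 1 input. There was therefore no replicate check for any difference described here, and no test, SD or p-value is given. The organoids are labelled as epithelial cells, and many chemokine receptors are used by immune cells, which the label does not include.

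Chemokines are small secreted or membrane-held proteins that direct the migration of leukocytes by binding G-protein-coupled receptors. In the gut, epithelial cells release ligands that draw neutrophils, lymphocytes and dendritic cells towards the mucosa, whereas most of the receptors are used by the leukocytes themselves. H3K4me3 is found at the starts of active or poised genes, H3K27me3 is the mark of Polycomb repression, and promoters that carry both are called bivalent.

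The labelled cell type, epithelial cells, was checked against marker genes. Of 10 epithelial markers, all 10 had an H3K4me3 promoter peak in wt, and 9 had one in wt+TNFα, where Krt20 had neither mark. None of 6 haematopoietic, 5 stromal and 4 endothelial markers, Ptprc and Spi1 among them, carried H3K4me3 in either condition. The labels give a sequencing depth of 40000000 reads for H3K4me3 and input and 60000000 for H3K27me3, and the study's reporting summary gives more reads to wt+TNFα than to wt for H3K4me3 and input. The H3K4me3 lists were close in length, with 11552 peaks in wt and 11894 in wt+TNFα. The H3K27me3 lists were not, with 30594 and 60540 peaks in all. Of these, 30347 and 48962 lay on autosomes, where they covered 4.12% and 9.26% of the bases. On chromosome X the H3K27me3 cover was 0.597 Mb in wt against 74.7 Mb after TNFα, and chromosome Y held 3 H3K4me3 peaks in wt against 0 after TNFα, a difference between the libraries that the labels do not describe. The labels give neither the sex nor the animal of origin of the organoids, so each difference between wt and wt+TNFα below cannot be told apart from one between animals.

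A few promoters, chosen for the states named below, are shown first, with matches to a motif for NF-κB, a transcription factor that TNFα activates. A match says nothing of binding, and other members with the motif had neither mark, as given further below. Windows from 250 bases before to 50 bases after the start were taken from RefSeq (GRCm38.p6) and are written 5′ to 3′ on the strand of the gene, with capitals marking bases that match the NF-κB consensus on either strand. Ccl20 and Cxcl2 are shown as the promoters with H3K4me3 in wt+TNFα alone, Cxcl1 as a neighbour of Cxcl2 that was marked in both conditions, Cxcl10 as a promoter with the motif and neither mark, and Cxcl12 as the promoter with the strongest H3K27me3.
Ccl20 (chr1:83116516-83116815, plus strand): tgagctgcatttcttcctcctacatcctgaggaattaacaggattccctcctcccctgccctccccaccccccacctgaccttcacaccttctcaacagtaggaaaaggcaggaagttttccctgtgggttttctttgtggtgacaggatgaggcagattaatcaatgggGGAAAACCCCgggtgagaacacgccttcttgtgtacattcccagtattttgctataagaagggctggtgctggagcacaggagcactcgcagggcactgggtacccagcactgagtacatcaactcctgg
Cxcl2 (chr5:90903649-90903948, plus strand): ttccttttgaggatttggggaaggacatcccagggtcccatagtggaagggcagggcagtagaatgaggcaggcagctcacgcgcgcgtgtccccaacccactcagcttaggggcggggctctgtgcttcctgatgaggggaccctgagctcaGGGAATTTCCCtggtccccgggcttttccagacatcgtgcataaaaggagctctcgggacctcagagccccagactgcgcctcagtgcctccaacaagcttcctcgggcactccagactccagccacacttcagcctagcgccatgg
Cxcl1 (chr5:90890995-90891294, plus strand): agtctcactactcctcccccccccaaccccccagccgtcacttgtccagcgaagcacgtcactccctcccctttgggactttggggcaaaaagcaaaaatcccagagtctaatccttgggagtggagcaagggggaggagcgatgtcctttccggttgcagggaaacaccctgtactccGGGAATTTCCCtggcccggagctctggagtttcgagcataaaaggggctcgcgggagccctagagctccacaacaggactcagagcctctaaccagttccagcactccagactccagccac
Cxcl10 (chr5:92348840-92349139, minus strand): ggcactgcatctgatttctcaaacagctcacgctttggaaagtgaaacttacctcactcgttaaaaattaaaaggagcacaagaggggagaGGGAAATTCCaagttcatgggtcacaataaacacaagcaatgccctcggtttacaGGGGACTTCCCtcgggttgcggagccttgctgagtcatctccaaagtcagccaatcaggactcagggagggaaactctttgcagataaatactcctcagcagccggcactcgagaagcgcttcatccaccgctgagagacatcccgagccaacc
Cxcl12 (chr6:117168285-117168584, plus strand): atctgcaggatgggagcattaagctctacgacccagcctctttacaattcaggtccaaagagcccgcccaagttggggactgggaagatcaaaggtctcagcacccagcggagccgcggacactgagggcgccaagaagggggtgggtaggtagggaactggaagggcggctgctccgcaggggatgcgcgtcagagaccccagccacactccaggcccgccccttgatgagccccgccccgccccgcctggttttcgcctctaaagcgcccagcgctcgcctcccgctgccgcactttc
In Ccl20 the match ran from -80 to -71, counted from the RefSeq start, on the antisense strand. The matches in Cxcl2 began at -97 and -96 and those in Cxcl1 at -71 and -70, each pair being the same site read on both strands. Cxcl10 held 4 matches, 1 at -159 and 3 that overlap each other from -104 onwards. Cxcl12 held 0.

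Of the 46 promoters, 8 (17.4%) carried H3K4me3 in wt and 9 (19.6%) in wt+TNFα, against 51.8% and 52.6% of the 20807 autosomal protein-coding genes. H3K27me3 was called at 12 (26.1%) in wt and 15 (32.6%) in wt+TNFα, against 22.3% and 27.5%. Both marks were present at 1 member in wt, the receptor Ccr9, and at 0 in wt+TNFα, against 5.39% and 6.7% of all genes. A total of 22 members (47.8%) had neither mark in either condition, where 25.9% of all genes did. Of all 20807 genes, 1760 start in stretches of at least 1 Mb with no peak in any of the 4 lists, 677 Mb in all, which hold 0 members. Without these stretches, left out after the data were seen, 19.3% of the other genes had neither mark, and H3K4me3 was at 56.5% and 57.4% and H3K27me3 at 24.3% and 29.9%. The H3K4me3 shares of the members were below those of all genes, and their H3K27me3 shares were near the background.

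H3K4me3 was called in wt+TNFα alone at 2 members, Ccl20 and Cxcl2 (4.35%), against 1.5% of all genes, and in wt alone at 1, Ccr9 (2.17%), against 0.74%. H3K27me3 was called in wt+TNFα alone at 3 members, Ccl11, Ccr8 and Cxcr1 (6.52%), against 6.48%, and in wt alone at 0, against 1.27%. Ccl20 and Cxcl2 had neither mark in wt, as did Ccl11, Ccr8 and Cxcr1. An exchange of H3K27me3 alone for H3K4me3 alone was seen at 0 members and 0.12% of all genes, and the reverse at 0 and 0.0961%, so a count of 0 is near the background. Over all genes, 113 (0.543%) went from neither mark to H3K4me3 alone and 990 (4.76%) from neither to H3K27me3 alone. With groups this small the member counts are a description of single genes and not a rate.

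**Figure D1:**
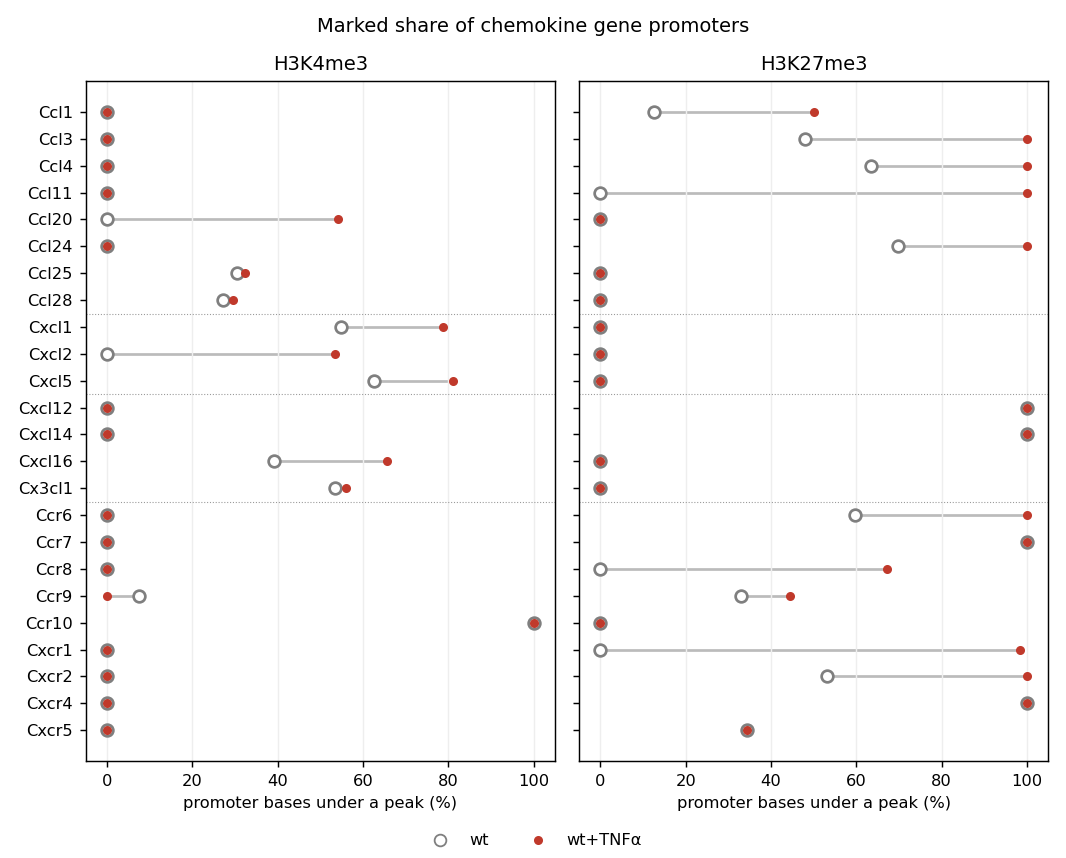
Share of promoter bases (%) under an H3K4me3 peak (left) and an H3K27me3 peak (right) for the 24 members marked in at least 1 list, with wt as open grey circles and wt+TNFα as red dots, 1 library each. Dotted lines separate CC ligands, ELR CXC ligands, other CXC and CX3C ligands, and receptors. Ccl20 and Cxcl2 move from 0 to 54.1% and 53.4% for H3K4me3, and 9 members lie at least 25 points further right for H3K27me3 in wt+TNFα.

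Among the CC ligands, H3K4me3 was present at 2 of 18 promoters in wt, Ccl25 and Ccl28, and at 3 in wt+TNFα, with Ccl20 added. Ccl20 is an epithelial chemokine that attracts CCR6-bearing dendritic cells and lymphocytes. Its promoter share under H3K4me3 was 0% in wt and 54.1% in wt+TNFα. The wt+TNFα peak (chr1:83116697-83118275) was 1579 bp wide, with a fold enrichment of 10.1 over the local background and a −log10 q of 36.4. It ran from -96 to 1482 bp relative to the nearest start, with 529 bp in exons and 981 bp in introns, and its summit lay 266 bp downstream of the start. In wt the nearest H3K4me3 peak was 42818 bp away. The NF-κB match printed above fell just outside the peak, with 0 of its bases covered, since the RefSeq start lies upstream of the transcript start nearest to the peak.

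Placed among the 786 wt+TNFα H3K4me3 peaks with no base under a wt peak, the Ccl20 peak had a higher fold enrichment than 85.6% of them. In the whole wt+TNFα list it stood above 14.7%. The median of those peaks was a fold enrichment of 6.74 and a width of 555 bp. H3K27me3 was called at the Ccl20 promoter in neither condition, and the nearest H3K27me3 peak was 38581 bp away in wt and 45783 bp in wt+TNFα.

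Ccl25, the ligand of CCR9, carried the strongest wt peak of the family. Its promoter share was 30.5% in wt and 32.3% in wt+TNFα over 8 annotated starts, and the peak was 2293 and 2430 bp wide. The fold enrichment was 47.5 in wt, above 93.4% of that list, and 29.9 in wt+TNFα, above 57.7%. Relative to the Ccl25 start the summits lay at -450 and -427 bp, and they were 326 and 303 bp downstream of the start of the divergent gene Elavl1, so the peak was shared between both genes and cannot be given to Ccl25 alone. It lay at the start of the gene record. The letters TATAAA at -16 to -11 from the RefSeq start of Ccl25 had 0 bases under H3K4me3 in either list. Ccl28, a mucosal chemokine that binds CCR10, had a promoter share of 27.1% and 29.4% and a peak of 3051 and 2829 bp, of which 2849 and 2534 bp lay in its intron. The fold enrichment at Ccl28 was 19.6 in wt, above 36.9% of its list, and 10.7 in wt+TNFα, above 16% of its list. No other protein-coding promoter lay under the Ccl28 peak.

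H3K27me3 was present at 4 of the 18 CC ligands in wt, Ccl1, Ccl3, Ccl4 and Ccl24, and at 5 in wt+TNFα, with Ccl11 added. The covered share differed by at least 25 points at all 5 and was the larger one in wt+TNFα each time. Ccl11, or eotaxin, which attracts eosinophils, went from 0% to 100% under a peak 6018 bp wide (fold enrichment 2.26), and its nearest wt peak was 14464 bp away. Ccl24, a second eotaxin, had 69.7% and 100% of its promoter covered, with peaks of 3141 and 7174 bp. Ccl3 and Ccl4 encode macrophage inflammatory proteins and lie side by side on chromosome 11. The Ccl3 share was 47.9% and 100%, and the Ccl4 share 63.4% and 100%. Ccl1, the ligand of CCR8, had 12.6% and 50% of its promoters covered, with peaks of 503 and 9065 bp over 1 of its 2 starts. The fold enrichment was 2.04 and 2.30 at Ccl1, 2.04 and 2.14 at Ccl3, 2.27 and 2.37 at Ccl4, and 2.03 and 2.14 at Ccl24, the wt+TNFα peaks standing above 84.8% to 92.8% of their list and the wt peaks above 29.5% to 76.4% of theirs. The −log10 q of the wt peaks ran from 0.551 to 1.39, against 2.2 to 3.41 in wt+TNFα.

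The other 10 CC ligands had neither mark in either condition. They included Ccl2, Ccl7, Ccl8 and Ccl12, which attract monocytes, Ccl5, which attracts T cells, and Ccl17 and Ccl22, the ligands of CCR4. The nearest H3K4me3 peak to Ccl2 was 727927 bp away in wt and 727875 bp in wt+TNFα, and that to Ccl17 26869 and 26449 bp. The nearest H3K27me3 peak was closer in wt+TNFα at 8 of the 10 and farther at 2, Ccl2 and Ccl7. Of all 5398 genes with neither mark in either condition, 83.5% were closer to a peak in the longer wt+TNFα list, so the members' count is near the background. It was 58486 bp from Ccl12 in wt and 3947 bp in wt+TNFα, and 6768 and 19115 bp from Ccl2. Ccl19 lies among near-identical gene copies, where the absence of a peak is uncertain.

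The CXC ligands with the ELR motif attract neutrophils through CXCR2. H3K4me3 was present at 2 of these 5 promoters in wt, Cxcl1 and Cxcl5, and at 3 in wt+TNFα, with Cxcl2 added. H3K27me3 was called at none of the 5 in either list. The Cxcl2 share was 0% in wt and 53.4% in wt+TNFα, under a peak (chr5:90903224-90904292) that was 1069 bp wide (fold enrichment 6.93, −log10 q 19.1). Its summit lay at -27 bp from the nearest start, and 647 bp of the peak lay outside the gene and 422 bp in exon. The peak covered all bases of the NF-κB matches. Its fold enrichment was higher than 53.2% of the peaks without a wt counterpart, close to their middle, and higher than 6.61% of the whole list. In wt the nearest H3K4me3 peak, 11950 bp away, was that of Cxcl1. Neither the Cxcl2 nor the Ccl20 peak was above the median −log10 q of the wt+TNFα list, so both calls are lost when the weaker peaks are left out.

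Cxcl1 and Cxcl5 were marked in both conditions, by wider peaks in wt+TNFα. The Cxcl1 share was 54.8% in wt and 78.7% in wt+TNFα, with peaks of 1098 and 1576 bp and fold enrichments of 12.3 and 23.4. The Cxcl5 share was 62.7% and 81.2%, with peaks of 1389 and 1989 bp and fold enrichments of 11.8 and 24.3. Both wt peaks lay wholly under the wt+TNFα peaks. The gain in share was 23.9 points at Cxcl1, above 99.3% of the 10623 genes with H3K4me3 in both lists, and 18.5 points at Cxcl5, above 98.6%. The median gain over those genes was 1.20 points, and 70.6% of them had the larger share in wt+TNFα. Cxcl3, whose promoter held the same NF-κB site at -73, had neither mark, and its nearest H3K4me3 peak was 25601 bp away in wt and 25375 bp in wt+TNFα. Cxcl15 had neither mark either.

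**Figure D2:**
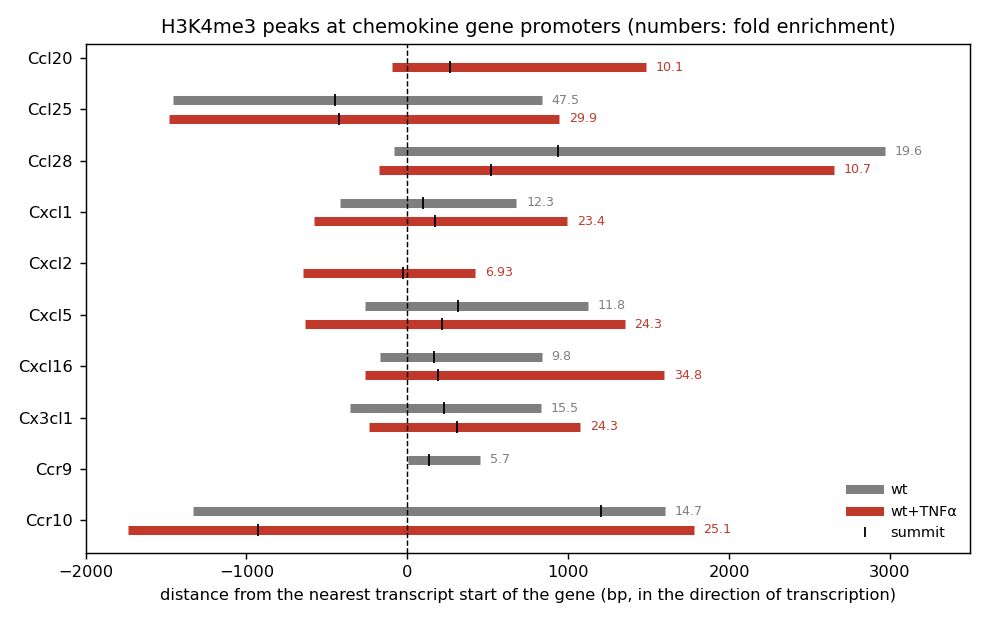
Extent of each H3K4me3 peak at the 10 members that had one, as distance (bp) from the nearest transcript start in the direction of transcription, grey for wt and red for wt+TNFα, with the summit as a black tick and the fold enrichment at the right end. Ccl20 and Cxcl2 have a red bar alone and Ccr9 a grey bar alone, and the red bars of Cxcl1, Cxcl5 and Cxcl16 reach past the grey ones on both sides.

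The interferon-inducible CXC ligands attract T cells through CXCR3. The 3 members are Cxcl9, Cxcl10 and Cxcl11, of which Cxcl11 is annotated as a polymorphic pseudogene. None had either mark in either condition, and the cluster of 44139 bp that holds them had 0% of its bases under any of the 4 lists. The nearest H3K4me3 peak to Cxcl10 was 38664 bp away in wt and 38662 bp in wt+TNFα, and that to Cxcl9 17875 and 17873 bp. The Cxcl10 window held NF-κB matches and an ISRE core, the interferon response motif, at -213 to -205, and no peak was called there in wt+TNFα.

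Of the 6 other CXC and CX3C ligands, Cxcl16 and Cx3cl1 carried H3K4me3 and Cxcl12 and Cxcl14 H3K27me3, in both conditions. Cxcl16, the membrane-held ligand of CXCR6, had a promoter share of 39.1% in wt and 65.6% in wt+TNFα, with peaks of 1007 and 1865 bp. Its fold enrichment was 9.80 in wt, above 14.4% of that list, and 34.8 in wt+TNFα, above 71.0%. The peaks also covered the promoter of Zmynd15, whose start lay 44 and 21 bp from the summits, so the difference belongs to a promoter that both genes use. Cx3cl1, or fractalkine, the membrane-held ligand of CX3CR1, had shares of 53.5% and 56.0%, peaks of 1186 and 1314 bp and fold enrichments of 15.5 and 24.3.

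Cxcl12, the ligand of CXCR4 made by stroma, and Cxcl14 were covered by H3K27me3 over 100% of their promoters in both lists. The Cxcl12 peak was 5008 bp wide in wt and 6813 bp in wt+TNFα, its fold enrichment 4.11 and 3.91, with a −log10 q of 9.59 and 14.2, the strongest among the members. The Cxcl14 peak was 11531 and 19042 bp wide, with fold enrichments of 3.38 and 3.25. Cxcl13, which draws B cells, and Cxcl17, a mucosal chemokine, had neither mark.

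H3K4me3 was present at 2 of 14 receptors in wt, Ccr9 and Ccr10, and at Ccr10 alone in wt+TNFα. Ccr10, the receptor of Ccl28, had 100% of its promoter covered in both, by peaks of 2930 and 3516 bp whose fold enrichments were 14.7 and 25.1. These summits lay away from the Ccr10 start, at 1201 bp in wt and at -930 bp in wt+TNFα, and the peaks also covered the promoter of the neighbouring gene Cntnap1. Ccr9, the receptor of Ccl25, had a wt H3K4me3 peak 449 bp wide over 7.41% of its promoters, whose fold enrichment of 5.70 was above 3.18% of the list, and 0% in wt+TNFα. That peak lay at the outermost of 6 annotated starts, within a promoter shared with Slc6a20a, and its summit was 209 bp from the Slc6a20a start. The H3K27me3 share of the Ccr9 promoters was 33.0% and 44.5%. At the outermost start the mark was present in both conditions. The added share lay under a separate wt+TNFα peak of 696 bp at another start (chr9:123766655-123767350). The only bivalent call of the family thus rested on a narrow H3K4me3 peak among the weakest of its list.

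H3K27me3 was present at 6 receptors in wt, Ccr6, Ccr7, Ccr9, Cxcr2, Cxcr4 and Cxcr5, and at 8 in wt+TNFα, with Ccr8 and Cxcr1 added. Cxcr1 and Cxcr2, the neutrophil receptors for ELR CXC ligands, lie together on chromosome 1. The Cxcr1 share was 0% in wt and 98.4% in wt+TNFα, under a peak 8252 bp wide (fold enrichment 1.91, −log10 q 1.43). The Cxcr2 share was 53.1% and 100%, with peaks of 2438 and 2903 bp, fold enrichments of 2.17 and 1.83 and a −log10 q of 0.940 and 1.09. By fold enrichment the Cxcr2 peak stood above 63.7% of its list in wt and 31.1% in wt+TNFα. Ccr8, a receptor of T cells that binds Ccl1, had a share of 0% in wt and 67.1% in wt+TNFα, under a peak 6825 bp wide (fold enrichment 2.0, −log10 q 1.66). Its nearest wt peak was 1683 bp away, so with promoters of 2000 bp on each side Ccr8 was called in both conditions. Ccr6, the receptor of Ccl20, had 59.7% and 100% of its promoters covered, by peaks of 8591 and 43862 bp. Its fold enrichment was 2.30 in wt, above 79.1% of the list, and 2.45 in wt+TNFα, above 93.8%, with a −log10 q of 1.37 and 3.73.

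Cxcr4 and Ccr7, which guide lymphocytes and other leukocytes to Cxcl12 and to lymph nodes, were covered over 100% in both lists. The Cxcr4 peak was 10443 and 12488 bp wide with fold enrichments of 2.61 and 3.12, and the Ccr7 peak 12572 and 23862 bp wide with 2.26 and 2.39. The share at Cxcr5, the follicular B cell receptor for Cxcl13, was 34.5% in both. Ccr1, Ccr2, Ccr3, Ccr4 and Cxcr6 had neither mark in either condition.

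Counted over all roles, 9 members (19.6%) had at least 25 points more of their promoter under H3K27me3 in wt+TNFα, namely Ccl1, Ccl3, Ccl4, Ccl11, Ccl24, Ccr6, Ccr8, Cxcr1 and Cxcr2, against 8.56% of all genes. That background was not matched for CpG content, which is given further below. The opposite difference of at least 25 points was seen at 0 members, against 1.21%. Among the 12 members with H3K27me3 in both lists the share was larger in wt+TNFα at 7 and smaller at 0, with a median difference of 20.9 points, against 52.9% larger, 12.8% smaller and a median of 1.75 points over the 4372 genes marked in both. With the peaks above the median −log10 q of each list alone, H3K27me3 was called at 8 members (17.4%) in wt against 19.7% of all genes, and at 14 (30.4%) in wt+TNFα against 24.2%. With a minimum −log10 q of 2 for H3K27me3, which leaves 3930 peaks in wt and 11785 in wt+TNFα, 3 members (6.52%) were called in wt, Cxcl12, Cxcl14 and Cxcr4, against 14% of all genes. At the same minimum 12 (26.1%) were called in wt+TNFα against 20.1%, and 9 (19.6%) in wt+TNFα alone against 6.8%. These 9 were Ccl1, Ccl3, Ccl4, Ccl11, Ccl24, Ccr6, Ccr7, Ccr9 and Cxcr5. All but Ccl11 had a peak below the minimum in wt. Of the full-list calls in wt+TNFα alone, Ccl11 stayed, whereas Ccr8 (−log10 q 1.66) and Cxcr1 (1.43) were lost. Cxcr2 (1.09 in wt+TNFα) was lost in both conditions. This minimum equals the q-value threshold that the study's reporting summary names for this mark, below which the deposited lists continue, down to a −log10 q of 0.302 in wt and 0.747 in wt+TNFα, so 9 of the 12 wt calls of the members rest on peaks under it. With both lists at 30594 peaks the H3K27me3 calls in wt+TNFα alone were again Ccl11, Ccr8 and Cxcr1 (6.52% of the members against 3.98% of all genes), and Cxcr2 was called in wt alone (2.17% against 2.01%), the opposite direction to its covered share. Because many of the wt+TNFα peaks lie on chromosome X, the autosomal peaks were also set equal, at 30347, after the data were seen. The same members were called, in wt+TNFα alone against 4.69% of all genes and in wt alone against 1.74%.

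For the 7 members with H3K4me3 in both lists, the position of the peak within its own list was compared, since each list was scaled on its own. Cxcl16 stood 56.6 percentage points higher in wt+TNFα, more than 99.9% of the 10623 genes marked in both. The difference was 24.5 points at Cxcl5, 21.4 at Cxcl1, 19.8 at Ccr10 and 16.2 at Cx3cl1, which was more than at 91.2%, 88.3%, 86.8% and 82.5% of genes. The difference was -20.8 points at Ccl28 and -35.7 points at Ccl25, with 9.21% and 1.75% of genes lower still. The median over all genes was 1.23 points, and their 5th and 95th percentiles were -27.4 and 30.7. Of the 7 only Cxcl16 and Ccl25 lay outside that range, both under peaks shared with a neighbouring gene.

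Peak widths were compared in the same way. The wt+TNFα peak was 1.85 times as wide as the wt peak at Cxcl16, 1.44 times at Cxcl1, 1.43 times at Cxcl5, 1.20 times at Ccr10 and 1.1 times at Cx3cl1. The ratio was 1.06 at Ccl25 and 0.927 at Ccl28. The median ratio over all genes was 1.07, with 0.877 and 1.44 as the 5th and 95th percentiles, so the ratio at Cxcl16 alone lay beyond them. The deeper sequencing of wt+TNFα H3K4me3 moves with these widths and with the calls of Ccl20 and Cxcl2 in wt+TNFα alone, and its part in them was not tested.

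**Figure D3:**
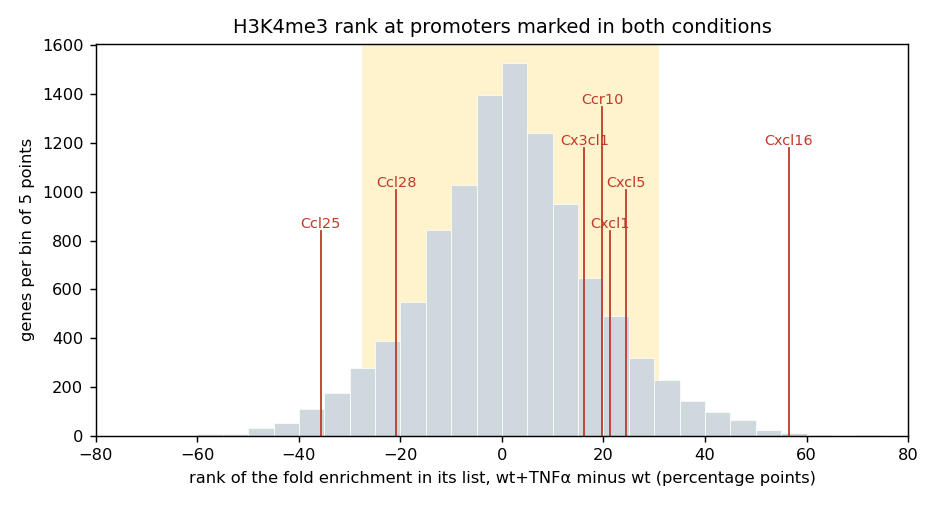
Histogram of the difference in rank of the H3K4me3 fold enrichment within its list, wt+TNFα minus wt in percentage points, over the 10623 autosomal protein-coding genes marked in both (genes per bin of 5 points, yellow band from the 5th to the 95th percentile). Red lines mark the 7 chemokine members, with Cxcl16 at 56.6 right of the band and Ccl25 at -35.7 left of it.

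A total of 29 members lay in 7 genomic clusters, in which each gene was within 500000 bp of the next, and 17 lay alone. Over all 1141953 bp of the clusters H3K27me3 covered 3.25% in wt and 17.3% in wt+TNFα, against 4.12% and 9.26% of the autosomes, and H3K4me3 covered 0.523% and 0.667%, against 0.724% and 0.792%. The H3K27me3 cover differed between clusters. It was 11.6% and 57.2% in the neutrophil receptor cluster, Cxcr2 to Cxcr1 (chr1:74153989-74194631). In the cluster Ccl2 to Ccl1 (chr11:82035571-82305690), it was 2.87% and 37.2%, from 7 and 21 peaks, and in Ccl5 to Ccl4 (chr11:83525778-83664683) 6.53% and 26.2%. Within Ccl2 to Ccl1, the long gene record of Ccl1, of 129034 bp, had 4.88% and 59.0% covered, and the other 141086 bp, with Ccl2, Ccl7, Ccl8, Ccl11 and Ccl12, 1.03% and 17.2%. In these 3 clusters the wt+TNFα cover exceeded that of the autosomes. With both lists at 30594 peaks the share of all cluster bases in wt+TNFα was 13.6%, against 7.42% of the autosomes, and with 30347 autosomal peaks in each it was 14.2%, against 8.03%. With a minimum −log10 q of 2 the cluster shares were 0% in wt and 5.48% in wt+TNFα, against 1.55% and 4.96% of the autosomes. Outside the stretches of at least 1 Mb without peaks, the full lists covered 5.68% and 12.8% of the autosomes.

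The ELR ligand cluster, Cxcl5 to Cxcl2 (chr5:90759360-90905938), had 0% of its bases under H3K27me3 in wt and 1.71% in wt+TNFα, from 1 peak of 2505 bp. It held 2 H3K4me3 peaks in wt, at Cxcl5 and Cxcl1, and 3 in wt+TNFα, with that of Cxcl2, and their cover was 1.53% and 2.74%. Ccl22 to Ccl17 (chr8:94745590-94812036), which also holds Cx3cl1, had 0% and 3.28% under H3K27me3, and Ccr9 to Ccr2 (chr9:123678439-124113557) 3.59% and 7.45%. In this last cluster H3K4me3 peaks away from member promoters lay at Lztfl1 and Fyco1 in both conditions, which are not chemokine genes. In the other 6 clusters no H3K4me3 peak lay away from a member promoter.

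**Figure D4:**
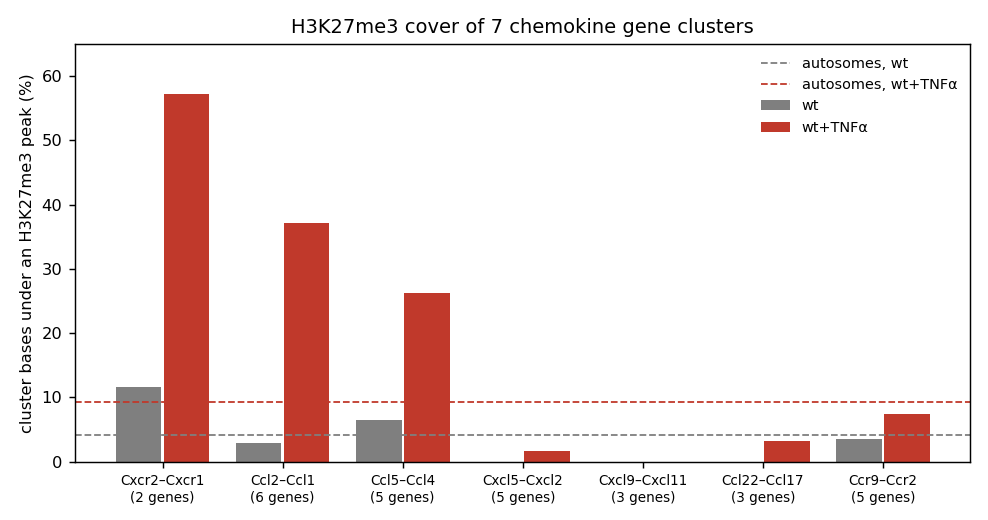
Share of cluster bases (%) under an H3K27me3 peak in wt (grey bars) and wt+TNFα (red bars) for the 7 clusters, 1 library each, with dashed lines at the share of the autosomes, 4.12% in wt and 9.26% in wt+TNFα. Cxcr2 to Cxcr1, Ccl2 to Ccl1 and Ccl5 to Ccl4 rise above the red line, and Cxcl9 to Cxcl11 has no bar.

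The promoters were also compared by sequence features that the choice of genes did not use. Within 1000 bp of the start of the gene record, the ratio of observed to expected CpG had a median of 0.20 over the members, from 0.0893 to 0.939, against 0.486 over all genes. A ratio under 0.4, here called low, was found at 40 members (87.0%) and at 42.2% of all genes. Those with at least 0.6 were Ccl25 (0.939), Ccr9 (0.745), Cxcl12 (0.730), Cxcr4 (0.696) and Cxcl14 (0.637), and Cxcl16 (0.499) lay between. At Ccl1, Ccr9 and Cxcr5 the start of the gene record lies far from the other starts. The ratio of Ccl25 was also taken at the start of its gene record, where the peak shared with Elavl1 lay. The 3 promoters with the strongest H3K27me3, Cxcl12, Cxcl14 and Cxcr4, were all among the CpG-rich ones.

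In the low-CpG class, most shares of the members were close to those of all genes of the class. Of the 40 low-CpG members 67.5% had neither mark in wt, against 65.6% of the 8786 low-CpG genes, and 55% against 56.0% in wt+TNFα. H3K27me3 alone was found at 20% against 18.8% in wt and at 27.5% against 27.7% in wt+TNFα. The 9 members with at least 25 points more H3K27me3 in wt+TNFα were all low-CpG, and that rise was not counted over the class. H3K4me3 was found at 12.5% against 15.6% in wt and at 17.5% against 16.3% in wt+TNFα. H3K4me3 in wt+TNFα alone, at Ccl20 and Cxcl2, was 5% of these members against 1.37% of low-CpG genes. The shares of the 5 high-CpG members were farther from those of their class of 7284 genes, and were not tested. H3K27me3 alone was found at 60% of them (Cxcl12, Cxcl14 and Cxcr4) against 12.0% in wt, and at 80%, with Ccr9 added, against 11.8% in wt+TNFα. H3K4me3 was found at 40% (Ccl25 and Ccr9) against 85.0% in wt and at 20% (Ccl25) against 85.4% in wt+TNFα.

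**Figure D5:**
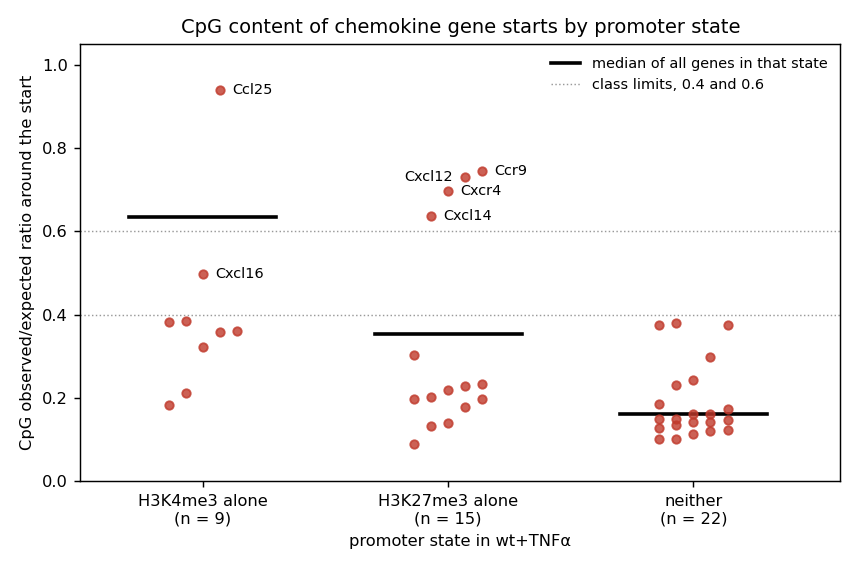
Ratio of observed to expected CpG around the start of the gene record for the 46 members (red dots) by promoter state in wt+TNFα, with a black bar at the median of all autosomal protein-coding genes in that state and dotted lines at 0.4 and 0.6. The 9 members with H3K4me3 alone lie mostly under the bar at 0.635, and the 22 with neither mark all lie under 0.4.

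RefSeq windows were found for 33 members (35 windows of 19174), and Ccl2, Ccl4, Ccl5, Ccl7, Ccl11, Ccl24, Cxcl5, Cxcl11, Cxcl16, Cxcl17, Ccr7, Ccr10 and Cxcr5 had none. The NF-κB consensus, searched on both strands, was found in 10 of the 35 windows (28.6%) and in 9.58% of all windows. They were those of Ccl1, Ccl9, Ccl20, Cxcl1, Cxcl2, Cxcl3, Cxcl10, Ccr1, Ccr3 and Ccr6. Of these, Cxcl1 had H3K4me3 in both conditions, Ccl20 and Cxcl2 in wt+TNFα alone, Ccl1 and Ccr6 had H3K27me3 in both, and Ccl9, Cxcl3, Cxcl10, Ccr1 and Ccr3 had neither mark. The letters TATAAA were found in 28.6% of member windows and 12.1% of all, and the ISRE core GAAANNGAA in 22.9% and 8.11%. Matches to different motifs were counted separately and may share bases. A match describes the letters of the window and says nothing of binding.

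Other genes of the pathway were counted in the same way. Of 10 further ligands and receptors, 1, Ccrl2, had H3K4me3 in both conditions, and H3K27me3 alone was found at 3 in wt and 4 in wt+TNFα, where Cx3cr1, the receptor of Cx3cl1, was added. Of 16 genes of chemokine receptor signalling, 8 had H3K4me3 alone in both conditions, among them Gnai2, Arrb2 and Rac1, against 44.6% of all genes, and 1, Elmo1, both marks. H3K27me3 alone was found at 4 of the 16 in wt and 5 in wt+TNFα, among them Vav1 and Rac2, which are used in leukocytes, against 16.9% and 20.8% of all genes. The same shares are the background of the 3 and 4 of 10 given before, and counts this small describe single genes. Pik3cg was the signalling gene that differed between the conditions, with neither mark in wt.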

How the data were processed

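Reads were trimmed by the authors with fastp, aligned to GRCm38/mm10 with bwa-mem (version 2.2), freed of duplicates with SAMtools (version 1.11) and of blacklisted regions, and peaks were called against the input with MACS2 (version 2.1.0 per the labels, another version being named elsewhere by the study). The 4 deposited peak lists, narrow for H3K4me3 and broad for H3K27me3, were used. Neither the reads nor the inputs were analysed here. In each deposited list the authors give a fold enrichment (a ratio to local background), −log10 p-values and q-values, and an integer display score, which was not used for results. The H3K27me3 lists hold peaks with a −log10 q under the threshold named in the study's reporting summary, with different lowest values in wt and wt+TNFα. The lists were scaled separately, and the names of 3 of the 4 mention a spike-in, which is not described further in the sources used here. The list without that mention is H3K27me3 in wt+TNFα, on which each H3K27me3 difference rests, and whether it was made like the others is not given in the sources used here. Fold enrichments were therefore compared by rank within a list. The precision of a call cannot be estimated from 1 library per mark and condition.

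Peaks were converted to 1-based coordinates, merged and intersected with promoters of 55450 GENCODE genes (release M21, 141767 transcripts). The members and all gene lists were chosen with earlier results of these data known. Members with an H3K4me3 peak in either condition, or with H3K27me3 shares differing by at least 25 points, are given singly, with −log10 q of some as a range, and the others by counts. Cxcl12, Cxcl14, Cxcr4, Ccr7 and Cxcr5 fall outside this rule and were named after their values were seen. Peak distances are also given for Ccl2, Ccl12, Ccl17, Cxcl3, Cxcl9 and Cxcl10, which fall outside it too. The background is 20807 autosomal protein-coding genes. The overlap step was tested on simulated peaks at 800 genes, some of them planted without an overlap, and the planted bases were returned at all 800. Python 3.11.15, numpy 2.4.6, pandas 2.3.3, scipy 1.17.1 and matplotlib 3.10.9 were used. The alternatives were promoters of 500 or 2000 bp, 1 start per gene, an overlap of at least 200 bp, the stronger part of each list (above its own median −log10 q), a minimum −log10 q of 2 for H3K27me3 (the threshold of that summary), equal numbers of peaks (also of autosomal peaks, added after the data were seen), and clusters extended by 10000 bp.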

Additional observations from a re-analysis of the deposited data

How the results depend on the processing

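Of 92 values recomputed under 9 alternatives, 73 stayed within 1.5 times the reported count, or within the counting interval of a share, and 19 did not. Some of the 73 could not change. The −log10 q minimum does not touch H3K4me3, and equal numbers of peaks do not touch the wt calls and shares. Promoters of 500 or 2000 bp, 1 start per gene, an overlap of at least 200 bp and extended clusters moved none of the counts past that limit, although the genes were not always the same. With promoters of 2000 bp the H3K27me3 calls in wt+TNFα alone were Ccl11, Ccl22, Ccr4 and Cxcr1, Ccr8 being called in wt too, and with 1 start per gene Ccl1 and Cxcr5 lost their H3K27me3 calls in both conditions. Keeping the peaks of each list above its own median −log10 q left H3K4me3 at 1 member in wt (Ccl25), at 2 in wt+TNFα (Ccl25 and Cxcl16) and at 1 in wt+TNFα alone (Cxcl16), so neither Ccl20 nor Cxcl2 was called there. The same setting gave both marks at 0 members in wt, H3K27me3 at 7 in wt+TNFα alone and at 1 in wt alone (Cxcr2), and cluster shares of 0.0838% and 0.0887% for H3K4me3 and 1.47% and 13.6% for H3K27me3. For H3K27me3 the autosome shares were 3.12% and 7.39%. Shares of all genes were not computed at this setting for H3K4me3, both marks or calls in 1 condition alone, so these counts describe single genes. A minimum −log10 q of 2 for H3K27me3 gave 3 members in wt, 0 with both marks in wt, 9 in wt+TNFα alone, and cluster shares of 0% in wt and 5.48% in wt+TNFα. Those 9 included Ccl11 but neither Ccr8 nor Cxcr1. Equal numbers of peaks, and equal numbers of autosomal peaks (added after the data were seen), each gave 1 member with H3K27me3 in wt alone (Cxcr2), and wt+TNFα cluster shares of 13.6% and 14.2%. No paired analysis was possible because each condition and mark has 1 library. Peaks shared with Elavl1, Zmynd15, Cntnap1 or Slc6a20a cannot be given to 1 gene.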
